A study of Saccharomyces cerevisiae with 6 samples.

Results

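The 10 genes described here are the yeast genes FDH1, CHA1, GCV1, GCV2, GCV3, SHM1, SHM2, SER3, SER33 and MIS1, which handle formate, serine, glycine and the one-carbon units that pass between them. They were chosen by name from the 6174 open reading frames (ORFs) of the deposited table, with their ratios on all 6 arrays already known. The ratios of these 10 genes are therefore given as a description, and no test of them is read as evidence.

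Each array set total RNA of Saccharomyces cerevisiae cells given doxycycline (2 µg/ml) for 10 h against RNA of untreated cells of the same strain, all grown at 30 °C in YPG, a rich glycerol medium. The strain tetYFH1 (BQS201, W303-1A tetO7-YFH1::kanMX4) carries the frataxin gene YFH1 behind a tet promoter that doxycycline shuts down, in its untreated cells as well as in its treated ones. W303-1A (W303 below) has its own YFH1 promoter and controls for the drug. The titles give the untreated cells as 0 h, so that drug and elapsed time cannot be told apart within a strain. tetYFH1 had 4 arrays, which form a dye-swap pair A (A1, A2) and a dye-swap pair B (B1, B2), and W303 had 2 arrays in 1 pair. The treated RNA carried Cy5 on the first array of each pair and Cy3 on the second. All values are log2 ratios of treated over untreated, so absolute transcript levels are unknown, and in such bulk cultures fewer cells with a transcript and less transcript per cell cannot be told apart. Averages of a pair count as 1 replicate, which gives n = 2 for tetYFH1 and n = 1 for W303. Nothing in the labels ties pairs to separate cultures, so the spread between pairs may be technical. YFH1 was at −2.64, −3.29, −5.38 and −5.11 on A1, A2, B1 and B2 and at −0.08 and −0.05 in W303. The median of the tetYFH1 means over all ORFs was 0.11, and that of W303 was 0.05. Array B1 held 2603 exactly whole log2 numbers and B2 held 1524, against at most 8 on the others, and among the 10 genes FDH1, GCV2 and SHM2 had such a number on B1. Over all ORFs the correlation between a tetYFH1 pair B array and a W303 array lay between −0.22 and −0.06, and between a pair A array and a W303 array between 0.10 and 0.26, so the W303 direction rests on the labels.

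As background, folate carries single carbon atoms that come mainly from serine and glycine. Serine hydroxymethyltransferase moves a carbon from serine to tetrahydrofolate and leaves glycine. The glycine cleavage complex of mitochondria releases a further one from glycine, with carbon dioxide and ammonia. Mitochondria can hand these carbons to the cytosol as formate, and formate dehydrogenase burns what is left over. The complex depends on lipoate, which an iron-sulfur enzyme makes, and frataxin serves the assembly of iron-sulfur clusters.

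The genes for the enzymes that break down formate (FDH1) and serine (CHA1) were far lower after doxycycline in tetYFH1. The other 8 genes, among them those of the complex that cleaves glycine, had mean log2 ratios within 0.48 of 0. FDH1 fell 8.30-fold and CHA1 fell 4.54-fold. The means of the other 8 genes ran from −0.20 (SER3) to 0.48 (SHM2). In W303 FDH1 and CHA1 were also below 0, at −1.26 and −1.24. Of the 10 genes, 2 were lower past a limma adjusted p of 0.05 over all ORFs and 0 were higher. Over all ORFs 0.405% were lower by this rule and 0% higher. Because these ratios entered the choice of the genes, nothing is read from that count. Both calls were lost without array A2, B1 or B2 and when each array was centred on its median.

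**Figure D1:**
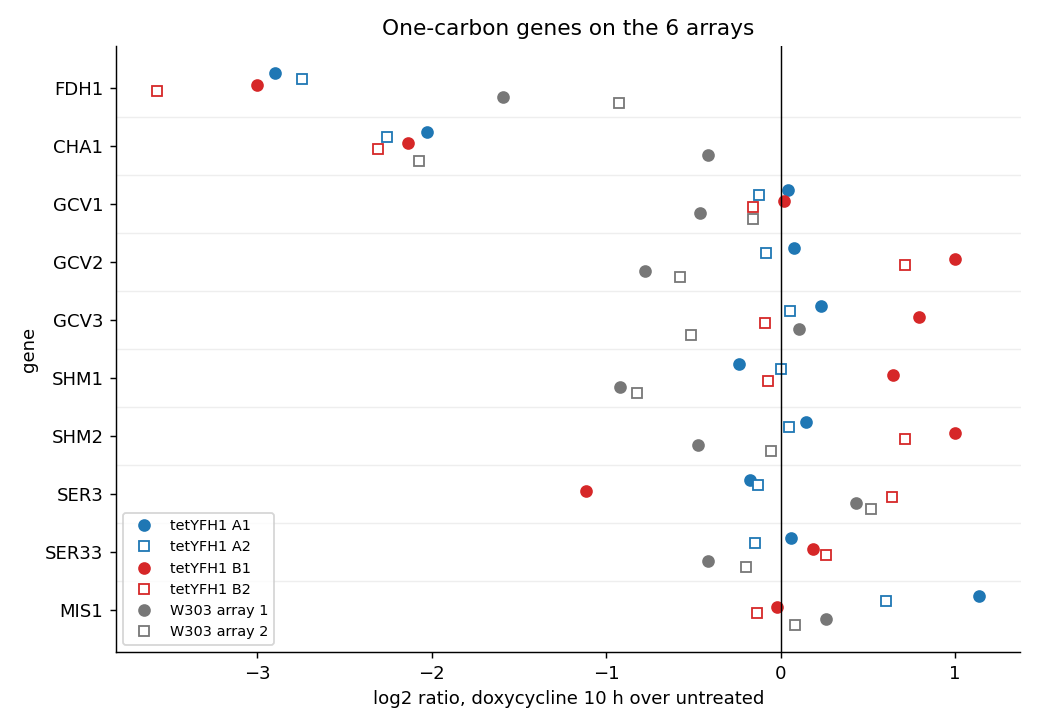
Log2 ratio of treated over untreated cells (x axis) for each of the 10 genes (y axis), with 1 point per array; filled circles are the arrays with the treated RNA in Cy5, open squares those with it in Cy3. FDH1 and CHA1 lie to the left of 0 on every array, though CHA1 lies among the other genes on W303 array 1 (−0.41). In tetYFH1 the other genes spread around 0, with SER3 widest within pair B.

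FDH1 (YOR388C) encodes the NAD-dependent formate dehydrogenase, which oxidises formate to carbon dioxide. Its log2 ratio was −2.90 (A1), −2.74 (A2), −3.00 (B1) and −3.57 (B2), and −1.59 and −0.92 on the W303 arrays. All 4 tetYFH1 arrays lay below both W303 arrays, with a gap of more than 1 between the groups. The mean was −3.05 ± 0.33 (SD, n = 2) in tetYFH1, the third lowest of all ORFs, and the W303 mean was the 22nd lowest of its pair. Its rank from the lowest ORF was 3 (A1), 5 (A2), 8 (B1) and 4 (B2), where the B1 rank is shared with other ORFs at exactly −3. FDH1 was thus near the bottom of every tetYFH1 array whatever the dye. Of the 10 genes, FDH1 and CHA1 were below 0 on all 4 tetYFH1 arrays, as were 6.75% of all ORFs. In W303 it ranked 6 on array 1 and 154 on array 2. The tetYFH1 mean was lower than that of W303 by a log2 difference of −1.80 (SE 0.40).

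CHA1 (YCL064C) encodes the mitochondrial serine and threonine deaminase, known for its induction when either amino acid is supplied. Its log2 ratio was −2.03 (A1), −2.25 (A2), −2.13 (B1) and −2.31 (B2), a range of less than 0.3 over both dyes and both pairs. The W303 arrays were far apart, at −0.41 and −2.07, so the groups overlapped: W303 array 2 was below A1. The gap of 1.66 between the W303 arrays was the 12th largest among the 6174 ORFs of that pair. The tetYFH1 mean was −2.18 ± 0.06 (SD, n = 2), the 13th lowest of all ORFs. The difference from W303 was −0.94 (SE 0.38) with both W303 arrays, and it was −0.11 without W303 array 1 and −1.77 without W303 array 2. How much lower CHA1 was in tetYFH1 than in W303 therefore depends on which W303 array is used.

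Of the glycine cleavage genes, GCV1 lay near 0 in both tetYFH1 pairs and GCV2 was above 0 in pair B alone, while all 3 had W303 means below 0. GCV1 (YDR019C, the aminomethyltransferase or T protein) read 0.04, −0.12, 0.02 and −0.16 on A1, A2, B1 and B2, and −0.46 and −0.16 in W303. All tetYFH1 values were above both W303 values only because B2 exceeded W303 array 2 by less than 0.001, so the separation is nominal. GCV2 (YMR189W, the glycine decarboxylase or P protein) read 0.08 and −0.09 in pair A but 1.00 and 0.71 in pair B, against −0.77 and −0.57 in W303. Pair A was at 0 and pair B well above it, while both W303 arrays lay below every tetYFH1 array. GCV3 (YAL044C, the lipoate-carrying H protein) read 0.23, 0.05, 0.79 and −0.09 in the same order, and 0.11 and −0.51 in W303. Its groups overlapped, and its pair B arrays were 0.88 apart.

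The tetYFH1 means of the complex were −0.06 ± 0.02 for GCV1, 0.43 ± 0.61 for GCV2 and 0.25 ± 0.15 for GCV3 (SD, n = 2). The W303 means of GCV1, GCV2 and GCV3 were −0.31, −0.67 and −0.20. None of these 3 genes passed in limma. LPD1 (YFL018C), the L protein that the complex shares with other dehydrogenases and a gene named here after its values were seen, had a tetYFH1 mean of 0.07 ± 0.11 (SD, n = 2) and a W303 value of −0.27.

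Serine hydroxymethyltransferase comes as SHM1 (YBR263W) in mitochondria and SHM2 (YLR058C) in the cytosol. SHM1 read −0.24 (A1), 0.00 (A2), 0.65 (B1) and −0.07 (B2), and −0.92 and −0.82 in W303. The W303 values were close together and below all 4 tetYFH1 values. SHM2 read 0.14, 0.05, 1.00 and 0.71 on A1, A2, B1 and B2, and −0.47 and −0.06 in W303. It was the one gene of the 10 above 0 on all 4 tetYFH1 arrays and below 0 on both W303 arrays, with its larger values in pair B. Over all ORFs 11.5% were above 0 on all 4 tetYFH1 arrays. The mean was 0.08 ± 0.29 for SHM1 and 0.48 ± 0.54 for SHM2 (SD, n = 2) in tetYFH1, and −0.87 and −0.26 in W303.

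The log2 ratio of the mitochondrial isoenzyme was lower than that of the cytosolic one on all 6 arrays. SHM1 minus SHM2 was −0.38, −0.05, −0.35 and −0.79 on A1, A2, B1 and B2, and −0.45 and −0.77 in W303. The mean of this difference was −0.39 ± 0.25 (SD, n = 2) in tetYFH1 and −0.61 in W303. W303 had 1 pair and so no spread, and whether the strains differed was not tested. These are differences between log2 ratios and say nothing of which transcript was more abundant.

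SER3 (YER081W) and SER33 (YIL074C) encode isoenzymes of phosphoglycerate dehydrogenase, which opens the route from glycolysis to serine. SER3 read −0.18 (A1), −0.13 (A2), −1.12 (B1) and 0.64 (B2), and 0.43 and 0.52 in W303. The 2 pair B arrays pointed in opposite directions, 1.76 apart, and only 2.83% of the ORFs had a larger gap in that pair. The SER3 mean of −0.20 ± 0.06 (SD, n = 2) hides this, since the SD is between pair means, and without B1 the mean was 0.24. SER33 read 0.06, −0.15, 0.19 and 0.26 on A1, A2, B1 and B2, and −0.41 and −0.20 in W303. All its tetYFH1 values lay above both W303 values, and its mean was 0.09 ± 0.19 (SD, n = 2).

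In W303 the isoenzymes of phosphoglycerate dehydrogenase parted, with SER3 above SER33 by 0.84 on array 1 and 0.72 on array 2. In tetYFH1 SER3 minus SER33 was −0.24, 0.02, −1.30 and 0.38 on A1, A2, B1 and B2, a mean of −0.29 ± 0.25 (SD, n = 2). The W303 values exceeded all 4 tetYFH1 values. The genes are close paralogs and may share signal, which was not tested.

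MIS1 (YBR084W) encodes the mitochondrial C1-tetrahydrofolate synthase, which interconverts formate and the folate-bound one-carbon units. It read 1.14 on A1 and 0.60 on A2 but −0.02 on B1 and −0.14 on B2, and 0.26 and 0.09 in W303. The pairs did not overlap, and the W303 arrays lay between them. The mean was 0.40 ± 0.67 (SD, n = 2), so the SD exceeded the mean. On A1 it was the 66th highest ORF and on A2 the 460th highest.

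**Figure D2:**
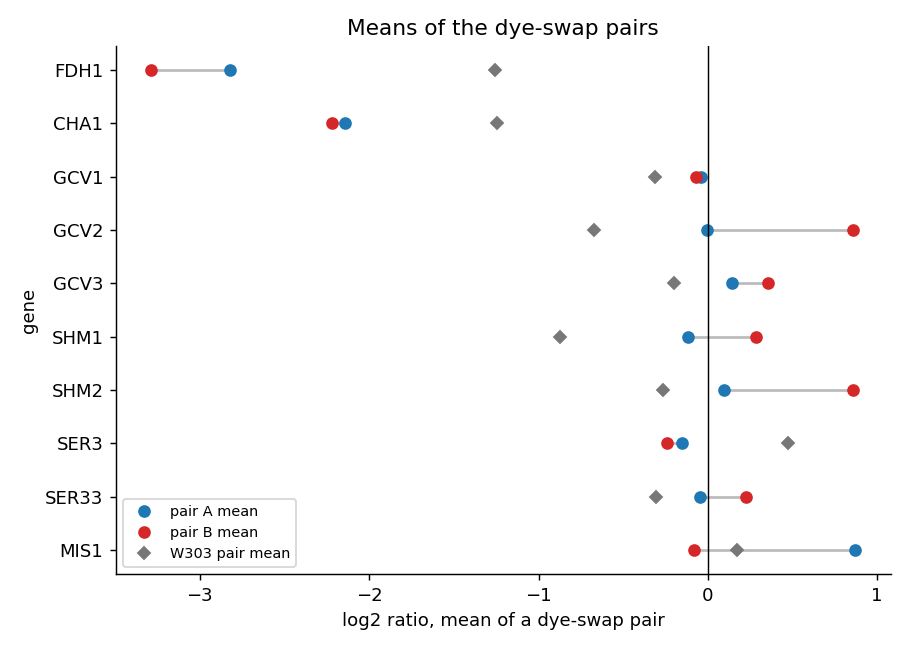
Mean log2 ratio of each dye-swap pair (x axis) for the 10 genes (y axis): blue circles are tetYFH1 pair A, red circles tetYFH1 pair B, joined by a line, and grey diamonds the W303 pair. The pairs lie within 0.1 of each other for CHA1, GCV1 and SER3 and furthest apart for MIS1 (0.87 and −0.08), GCV2 and SHM2.

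The tetYFH1 pairs differed in opposite ways for these genes. Pair B exceeded pair A by 0.86 for GCV2, 0.76 for SHM2, 0.41 for SHM1, 0.27 for SER33 and 0.21 for GCV3. MIS1 was lower in pair B than in pair A by −0.95 and FDH1 by −0.47. CHA1, SER3 and GCV1 differed between the pairs by less than 0.1. The median gap between the arrays of a pair was 0.17 in pair A and 0.29 in pair B for the 10 genes, beside 0.20 and 0.49 over all ORFs.

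The comparison of tetYFH1 with W303 asks which responses differ where the drug shuts off YFH1. Against W303, FDH1 (−1.80), CHA1 (−0.94) and SER3 (−0.67) stood lower in tetYFH1, and the other 7 genes stood higher, as did 57.1% of all ORFs. The largest positive differences were 1.10 (SE 0.46) for GCV2, 0.96 (SE 0.40) for SHM1 and 0.74 (SE 0.44) for SHM2, followed by GCV3 (0.45), SER33 (0.40), GCV1 (0.25) and MIS1 (0.22). With limma 0 of the 10 passed an adjusted p of 0.05, and 4 (FDH1, CHA1, GCV2 and SHM1) had an unadjusted p under 0.05. Over all ORFs 0% passed and 6.33% had an unadjusted p under 0.05. In W303 alone 0 of the 10 passed in limma and 3 (FDH1, CHA1 and SHM1) had an unadjusted p under 0.05, beside 0% and 2.62% of all ORFs. All 4 tetYFH1 arrays lay above both W303 arrays for GCV1, GCV2, SHM1, SHM2 and SER33, as for 13.3% of all ORFs. They lay below both W303 arrays for FDH1, as for 9.31% of all ORFs. These values took part in the choice of the genes, and nothing is read from these counts. With the W303 ratios turned to untreated over treated, FDH1 and CHA1 passed for the difference, and GCV1, GCV2, SHM1, SER3 and SER33 changed the sign of their difference.

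**Figure D3:**
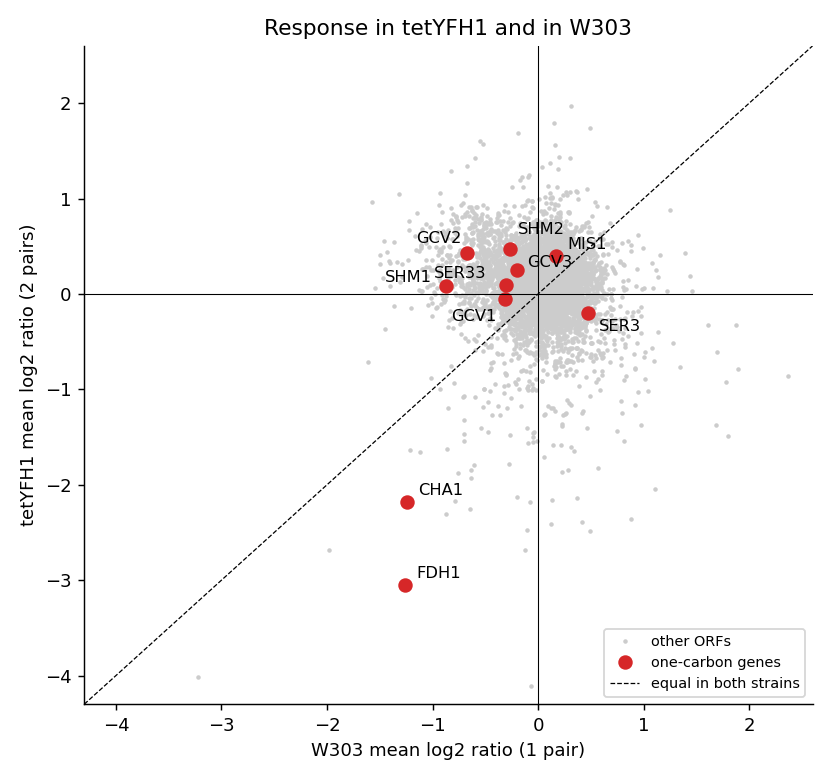
Mean log2 ratio in tetYFH1 (y axis, 2 pairs) against W303 (x axis, 1 pair) for the 10 genes (red, named) and all other ORFs (grey); the dashed line marks equal ratios. FDH1 and CHA1 lie at the lower left, below 0 in both strains and under the line, and GCV2, SHM1 and SHM2 lie above the line to the left of 0.

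In tetYFH1 the median of the 10 genes was close to that of all ORFs, although FDH1 was the 3rd and CHA1 the 13th lowest ORF. In W303 the median of the 10 was the lower one. The median of the means of the 10 genes was 0.09 in tetYFH1, beside 0.11 over all ORFs. In tetYFH1 6 of 10 were above 0 (65.8% of all ORFs). In W303 the median was −0.31, beside 0.05, with 8 of 10 below 0 (42.9% of all ORFs). On both W303 arrays 7 of the 10 were below 0 (21.9% of all ORFs), and SER3 and MIS1 were above 0 on both (30.1% of all ORFs). Because the genes were chosen with these values known, and W303 had 1 pair, nothing is read from these medians and counts.

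The profiles of the 10 genes over the 6 arrays were compared by Euclidean distance. The closest of the 45 pairs were GCV1 and SER33 (0.46) and GCV2 and SHM2 (0.62), and the most distant were FDH1 and SHM2 (7.31). The ORFs nearest to FDH1 were the acetyl-CoA synthetase gene ACS1 (2.00), the ammonium and acetate transporter family gene ATO3 (2.04), the desiccation gene SIP18 (2.22), the minor transaldolase gene NQM1 (2.22) and the minor transketolase gene TKL2 (2.41). The median distance of all ORFs from FDH1 was 6.71, which is large because FDH1 was near the bottom of every tetYFH1 array. Each of these nearest ORFs read an exactly whole number on B1, B2 or both, and FDH1 did so on B1. On the W303 arrays SIP18 read −2.45 and −1.50, ATO3 −1.11 and −0.47, and TKL2 −0.26 and −1.47. ACS1 read 0.07 and −0.32 there and NQM1 −0.06 and −0.15. Both W303 arrays entered the distance, so the choice favours ORFs with low values there like FDH1.

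The ORFs nearest to CHA1 were TKL2 (0.99), the phosphogluconate dehydrogenase gene GND2 (1.01), the catalase gene CTT1 (1.38), the aldehyde dehydrogenase gene ALD4 (1.73) and YBR116C (1.74), beside a median of 5.14. In the first 3 of them the W303 arrays were also apart: TKL2 read −0.26 and −1.47 there, GND2 0.13 and −1.39, and CTT1 −0.26 and −1.01. Each was lower on array 2 like CHA1, but both W303 arrays entered the distance, so the choice favours ORFs with such a gap. TKL2 and GND2 read exactly −2 on both pair B arrays, ALD4 on B2 and YBR116C on B1. GCV2 lay closest to URA5, a pyrimidine synthesis gene (0.22), the mannosyltransferase gene MNN10 (0.27), the ribosomal protein gene RPS18B (0.29), the translation initiation factor gene NIP1 (0.37) and the ribosome assembly gene MRT4 (0.38), beside a median of 1.75. All of these ORFs read exactly 1 on B1, as GCV2 did.

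The surrounding pathways were followed through 45 measured ORFs in 4 lists, drawn up by function without the 10 genes. In limma 0 of the 45 passed in tetYFH1, where 0.405% of all ORFs passed, and the smallest adjusted p was 0.501. An unadjusted p under 0.05 was found for 5 of them (11.1%), among them SER2, CHA4, ILV1 and SRY1, beside 9.46% of all ORFs. For the difference between the strains 0 passed in limma (smallest adjusted p 0.784), beside 0% of all ORFs. GLY1 alone (2.22%) had an unadjusted p under 0.05 there, beside 6.33% of all ORFs. The median over the 45 was 0.07 in tetYFH1 and −0.14 in W303. Of the 45, 26 had an exactly whole number on B1 or B2, as had 3223 of the 6174 ORFs. The SDs given for these genes are between pair means and do not show the gap between the arrays of a pair.

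The 12 serine and glycine genes had a median of 0.19 in tetYFH1, with 9 above 0, and −0.04 in W303. The highest were ILV1, the biosynthetic threonine deaminase (0.77 ± 0.93), and GLY1, the threonine aldolase that makes glycine (0.66 ± 1.03), and the lowest were the mitochondrial glycine carrier HEM25 (−0.19 ± 0.04) and the phosphoserine aminotransferase SER1 (−0.10 ± 0.14; SD, n = 2 for each). GLY1 read −0.16 (A1), 0.02 (A2), 2.00 (B1) and 0.78 (B2), and −0.93 and −0.87 in W303. As for GCV2 and SHM2, pair A was near 0, pair B above it and W303 below it. CHA4, the activator of CHA1, named after its values were seen, read 0.74, 0.84, 0.00 and 0.84 on A1, A2, B1 and B2, and −0.05 and −0.01 in W303. Its ratio was thus above 0 on 3 of the arrays where CHA1 was far below 0, and its mean of 0.60 ± 0.26 (SD, n = 2) did not pass in limma (adjusted p 0.501). SRY1, a dehydratase of 3-hydroxyaspartate, had 0.62 ± 0.17 (SD, n = 2) in tetYFH1 and 0.95 in W303. The phosphoserine phosphatase SER2 had 0.52 ± 0.03 (SD, n = 2) and 0.17. On B1 and B2 SRY1 read exactly 0 and 1, and SER2 read 1.00 and 0.09.

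The 17 folate genes had a median of 0.07 in tetYFH1, with 12 above 0, and −0.20 in W303. Their means were lowest for MET12, an isoenzyme of methylenetetrahydrofolate reductase (−0.52 ± 0.61), and ABZ1, which serves the synthesis of p-aminobenzoate (−0.36 ± 0.19). They were highest for MET7, the folylpolyglutamate synthase (0.33 ± 0.23), and ECM31 (0.29 ± 0.14) (SD, n = 2 for each). On B1 and B2 ABZ1 read exactly −1 and 0, and MET7 exactly 1 and 0. The cytosolic counterpart of MIS1, ADE3, named after its values were seen, read 0.33, −0.02, 0.28 and 0.00 on A1, A2, B1 and B2, without the split between pairs that MIS1 had. The 13 genes of purine synthesis, which spends folate-bound carbon, and of its regulators had a median of 0.06 in tetYFH1 and −0.27 in W303. ADE6 (0.57 ± 0.61) and ADE4 (0.47 ± 0.71) were highest, and the isoenzymes of the last transformylation, ADE17 (−0.49 ± 0.72) and ADE16 (−0.28 ± 0.72), lowest (SD, n = 2 for each). The 4 lay within 0.3 of 0 on both pair A arrays and further from it in pair B. There ADE6 read exactly 1 on B1 and B2, and ADE16 and ADE17 read exactly −1 on B1. W303 strains are known to lack a working ADE2, which limits them as a model of this pathway.

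The formaldehyde and formate list had 3 measured ORFs, all with a tetYFH1 mean below 0, of which 2 are described here. Of these, the formaldehyde dehydrogenase SFA1 (−0.33 ± 0.02) and the S-formylglutathione hydrolase YJL068C (−0.36 ± 0.20; SD, n = 2 for each) act on the way to formate. SFA1 read −0.23, −0.44, −0.05 and −0.58 on A1, A2, B1 and B2. In W303 it read −0.75 and −0.17, so its groups overlapped. YJL068C read exactly 0 on B1 and −1 on B2. Neither passed in limma (adjusted p 0.654 and 0.630).

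**Figure D4:**
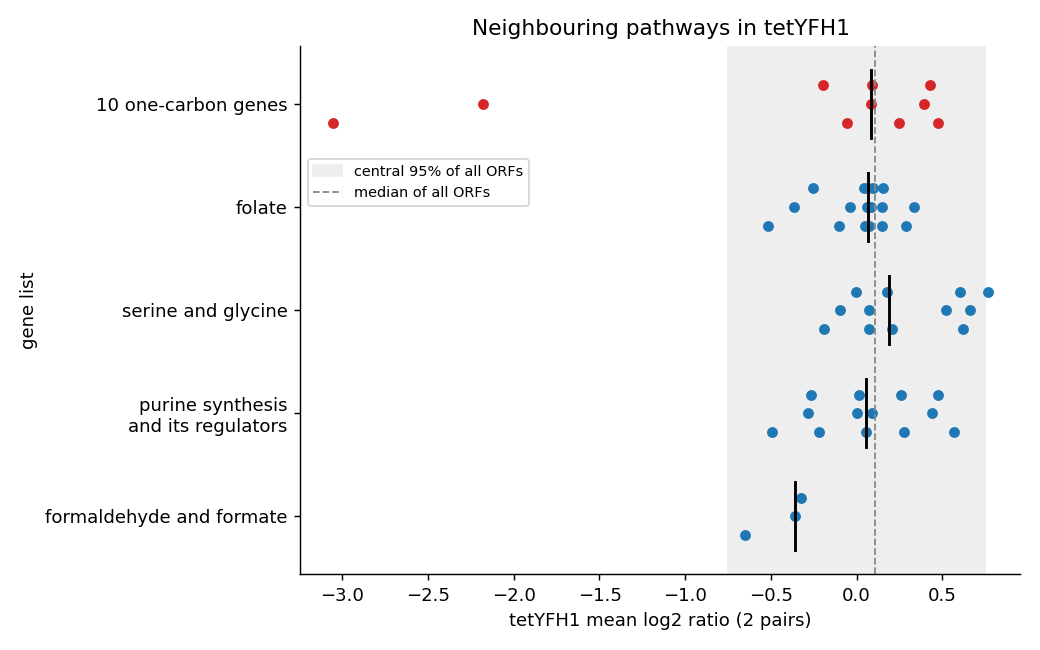
Mean log2 ratio in tetYFH1 (x axis, 2 pairs) for the 10 one-carbon genes (red) and the 4 lists of surrounding pathways (blue), with 1 point per gene, spread vertically for legibility; black bars are list medians, the dashed line is the median of all ORFs and the grey band holds the central 95% of them (−0.75 to 0.75). FDH1 and CHA1 lie far outside the band, ILV1 just outside it at 0.77, and the other genes within it.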

How the data were processed

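Labelled cDNA from total RNA was hybridised on 2-colour arrays, per the labels' protocols. The table deposited by the authors holds log2 ratios of 6174 ORFs on 6 arrays, with no value missing. How they were scanned, background-corrected, dye-normalized and filtered is not given in the sources used here. The direction, treated over untreated, is that of the labels. The deposited values were used as they stand. ORFs were named through the locus tags of the R64 gene table, of which 5675 matched.

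Dye-swap partners were averaged before the fit. A linear model with a mean for each strain was then fitted in limma 3.58.1 (R 4.3.3; 1 residual and 6.64 prior degrees of freedom). Tests were two-sided, with Benjamini-Hochberg adjustment over all ORFs and a threshold of 0.05. Since W303 had 1 pair, its spread is that of tetYFH1. The fit was tested on simulated data, which had smaller gaps within pairs than the real arrays and no whole numbers. That test therefore does not cover these features of the data. Precision is limited by the number of arrays.

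The 10 genes, the lists and the tests were chosen with earlier results of these data known. Named genes are the 10, the 2 highest and 2 lowest of each list (except a formate gene that is not reported here), and the 5 ORFs nearest in profile to FDH1, CHA1 and GCV2; others were named after their values were seen. A planned search for promoter motifs was not run, as no sequence was used here.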

Additional observations from a re-analysis of the deposited data

Results flagged for a closer look

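The 55 genes looked at were the 10 and the 45 of the lists. An array far from the other 3 tetYFH1 arrays was found for 4 genes, none of them among the 10. Chance alone would mark about 1 in 20 if the arrays were independent. They form 2 dye-swap pairs, and pair B holds many tied whole numbers, so that rate may not hold here. The homocysteine methyltransferase gene MET6 read 0.35 on A1, with the next value at 0.00. The folate gene FAU1 read 0.54 on B2, with the next at 0.03. ADE2 read 1.17 on B2, with the next at 0.07. CHA4 read 0.00 on B1, with the next at 0.74. All 4 genes read exactly 0 on B1, and MET6 did so on B2 too. Exactly 0 was the value of 1708 ORFs on B1 and 880 on B2.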

How the results depend on the processing

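The 2 calls of FDH1 and CHA1 in tetYFH1 also stood with each array as a replicate, with the Exp number as a replicate block (2 calls), with the letter of the pair as a random block, with robust moderation, with tetYFH1 alone, at an adjusted p under 0.1 and with W303 turned. Dropping ORFs at whole numbers in pair B removed FDH1, GCV2 and SHM2 before the fit, and of the 7 genes left 1 (CHA1) passed. The count was 0 after centring, 0 after centring and scaling, and 0 to 2 without single arrays (0 without A2, B1 or B2, 2 without A1). With the arrays left entered singly, it was 2 without pair A and 3 without pair B, where MIS1 joined. In W303 the count of the 10 was 0 throughout except 3 without pair B. For the difference it was 0 except 1 (FDH1) without pair B and 2 with W303 turned. Of the 45 listed genes, 2 (CHA4 and SRY1) passed in tetYFH1 without pair B. Over all ORFs the tetYFH1 count was 25. It was 86 with arrays as replicates, 59 with the replicate block, 99 with the letter block and 39 at the looser threshold. It was 0 after centring, 106 without pair A, 300 without pair B and 0 to 25 without single arrays. Without whole numbers 3 passed of the 2951 ORFs left. For the difference the count over all ORFs was 0, against 8, 4 and 10 with the same 3 designs, 100 without pair A, 140 without pair B and 3 with W303 turned. For W303 it was 0, against 2, 0 and 3 with those designs, 3 without W303 array 1, 1 without pair A and 281 without pair B. Exp numbers mark dye orientation; the array differences within pairs correlated at 0.11, −0.09 and −0.16, so they were not taken to pair the samples, and the block changed no other call of these genes. FDH1 stayed between −3.29 and −2.82 and CHA1 between −2.38 and −2.12 in tetYFH1. The means of GCV2, SHM1, SER3, SER33 and MIS1 in tetYFH1 took the other sign in at least 1 setting. Why the counts moved was not tested.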
